A study of Mus musculus with 4 samples.

Results

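The subject here is the enzymes that make and desaturate fatty acids, with the transcription factor gene Srebf1, in mouse skeletal muscle that carries extra PPARα. The genes are Srebf1, Thrsp, Acly, Acaca, Acacb, Fasn, Elovl6, Scd1, Scd2 and Me1. They were chosen by name for their function, with earlier results of these data known. All 10 were on the array with a probe set of a single gene symbol, out of 12393 such genes, and they were read by 20 of the 22690 probe sets. Total RNA of gastrocnemius, the large calf muscle, was hybridised to 4 Affymetrix arrays, 1 per sample. There were 2 samples of MCK-PPARa transgenic mice, which overexpress PPARα in muscle, and 2 of their non-transgenic (NTG) wild-type littermates. The transgene's name refers to the promoter of muscle creatine kinase, a gene of striated muscle fibres. The labels used here give no strain, age or number of transgenic lines, and describe no treatment for either group. They give each array a replicate number and no animal, so a p-value speaks only for the spread among these samples. Paired values below give replicate 1 first and replicate 2 second.

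Fatty acids are built in the cytosol from acetyl-CoA, which ATP citrate lyase (Acly) releases from citrate. Acetyl-CoA carboxylases turn it into malonyl-CoA, fatty acid synthase (Fasn) extends the chain with NADPH as reductant, and Elovl6 and the stearoyl-CoA desaturases lengthen the product and place a double bond in it. Srebf1 encodes a sterol regulatory element binding protein that switches on most of these genes in liver and fat, where the pathway is most active. PPARα, by contrast, is best known for switching on genes of fatty acid use. In muscle the malonyl-CoA made by the second carboxylase, Acacb, is known mainly as an inhibitor of mitochondrial fatty acid entry.

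The authors deposited 1 signal per probe set and array on a linear scale. The 2% trimmed mean of the signals was between 1500.56 and 1500.68 on every array and the median between 581.5 and 700.3. A change is the mean of log2(signal + 64.2) in MCK-PPARa minus that in NTG muscle, given with its standard error (SE, n = 2 per group). The scale understates changes of dim genes. Adjusted p-values are from limma over the 8400 genes that passed a filter on dim probe sets, with the brightest probe set standing for each gene. A gene passed at an adjusted p under 0.05. The number of arrays limits the precision, and an exact permutation test of 2 against 2 samples cannot give a two-sided p below 0.333. The targeted gene, Ppara, read 633 and 2674 on the NTG arrays and 7969 and 15226 on the MCK-PPARa arrays. Its change was 3.003 ± 0.617 (limma adjusted p = 0.21, or 0.0012 when replicate number enters the fit as a block).

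All 10 genes had a higher mean in MCK-PPARa muscle, and Scd1, Thrsp and Srebf1 had the largest differences, from 2.96-fold to 4.99-fold. None of the 10 passed the limma test over all genes, by which 0.0595% of genes were called. At an unadjusted p under 0.05, 5 of the 10 were higher (Scd1, Thrsp, Srebf1, Fasn and Scd2) and 0 lower. The same rule took 3.33% of all genes tested as higher and 2.51% as lower. In 7 of the 10 both MCK-PPARa arrays lay above both NTG arrays, and in 0 both lay below. Over all genes those shares were 20.3% and 13.8%. Acaca, among the 7, passed the filter only through its MCK-PPARa arrays. The 10 genes were chosen with earlier results of these data known, so these shares only describe them. The median change of the 10 was 0.81, against 0.053 over all genes tested, of which 55.5% had a change above 0.

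**Figure D1:**
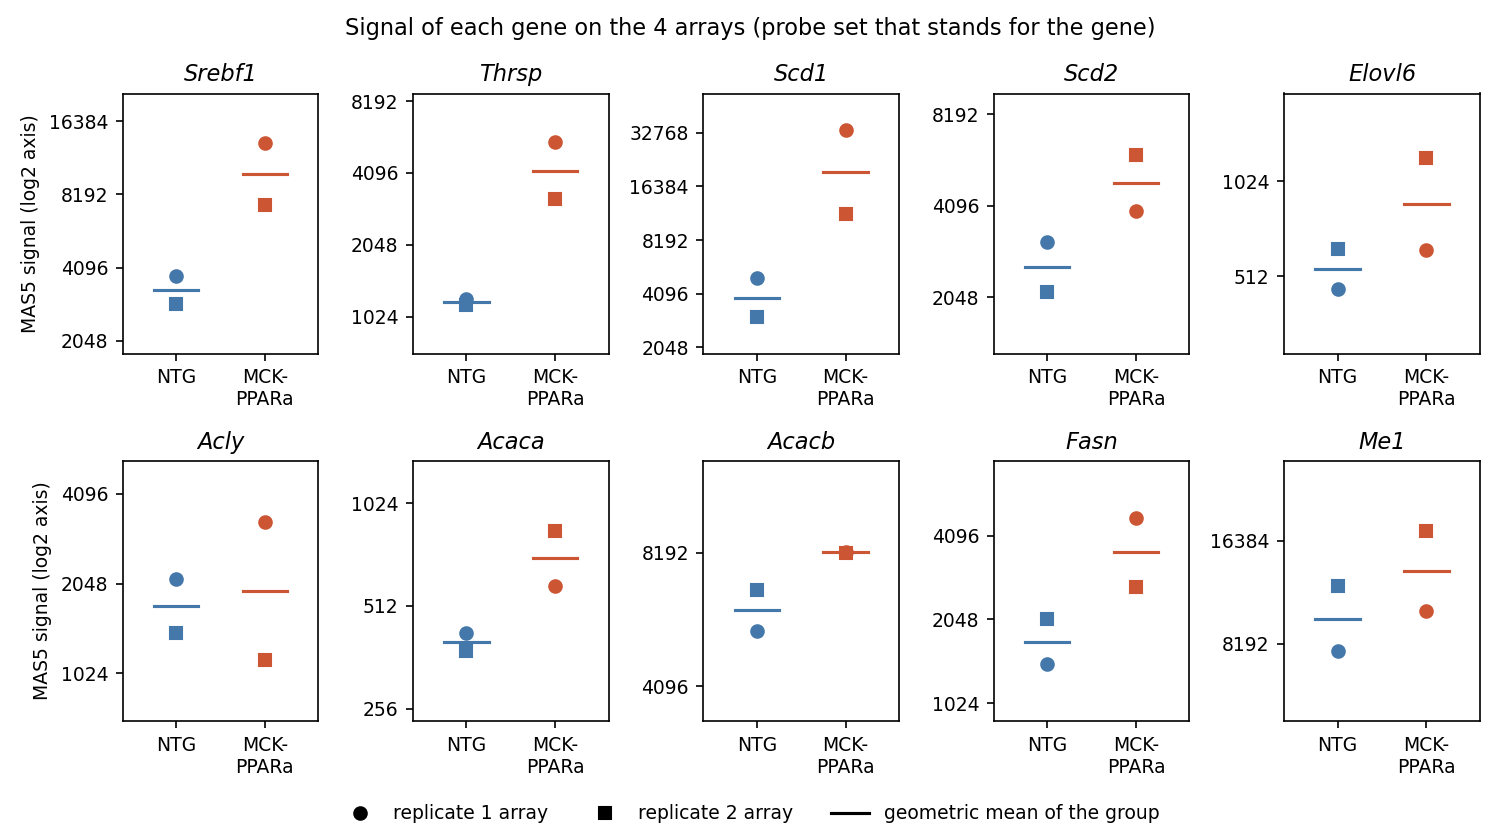
MAS5 signal (log2 axis, a different range in each panel) of each of the 10 genes on the 2 NTG and 2 MCK-PPARa arrays, with circles for replicate 1, squares for replicate 2 and a line at the geometric mean of each group. The groups are apart for Srebf1, Thrsp, Scd1, Scd2, Acaca, Acacb and Fasn and overlap for Elovl6, Acly and Me1.

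Srebf1, the regulator of the pathway, was read by a single probe set. Its signal was 3789.5 and 2899 in controls against 13298 and 7404 in transgenic muscle. The groups did not overlap, and the replicate 1 array was the higher in each. The change was 1.56 ± 0.36 or 2.96-fold, with a 95% interval of 0.73 to 2.40 (limma adjusted p = 0.29). The probe set's identifier ends in _a_at, the mark of a probe set designed to read several transcripts of a gene, so the Srebf1 isoforms are not told apart.

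Thrsp, also called Spot 14, is a small protein of lipogenic tissues that responds to thyroid hormone and aids fatty acid synthesis. It read 1210.2 and 1147 in controls against 5511 and 3184 in transgenic muscle. The NTG arrays lay close together and both transgenic arrays lay above them. The change was 1.78 ± 0.35 or 3.43-fold, with a 95% interval of 0.97 to 2.58 (limma adjusted p = 0.19). The second Thrsp probe set read 643 and 1060.1 in controls against 1680.2 and 1644 in transgenic muscle. It separated the groups too, with a smaller change of 0.95 ± 0.38 when every probe set was tested (limma adjusted p = 0.85).

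The promoters of Srebf1, Thrsp and Fasn are printed because these were the largest changes among the 8 genes (all but Scd1 and Scd2) that matched the RefSeq promoter table (GRCm38.p6), a choice made after the values were seen. Each sequence is the 250 bases before an annotated start on the gene's strand, 5′ to 3′. Capitals mark CCAAT, the motif of the SREBP partner NF-Y, or its reverse complement, and GGGCGG, the motif of Sp1, or its reverse complement. Srebf1 has 3 annotated starts, and only the window shown holds both motifs. The others hold CCAAT alone or GGGCGG alone. Which start the measured transcripts used is not known.
Srebf1, chr11:60210472-60210721, minus strand: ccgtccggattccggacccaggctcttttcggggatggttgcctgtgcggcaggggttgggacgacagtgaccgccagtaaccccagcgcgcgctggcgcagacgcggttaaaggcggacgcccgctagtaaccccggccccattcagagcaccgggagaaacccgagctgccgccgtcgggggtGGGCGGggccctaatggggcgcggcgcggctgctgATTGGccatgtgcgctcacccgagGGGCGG
Thrsp, chr7:97417551-97417800, minus strand: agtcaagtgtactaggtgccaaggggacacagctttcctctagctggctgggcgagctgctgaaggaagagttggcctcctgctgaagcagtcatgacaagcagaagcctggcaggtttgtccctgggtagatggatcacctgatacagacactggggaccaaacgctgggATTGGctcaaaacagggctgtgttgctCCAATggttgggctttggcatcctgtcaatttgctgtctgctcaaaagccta
Fasn, chr11:120824548-120824797, minus strand: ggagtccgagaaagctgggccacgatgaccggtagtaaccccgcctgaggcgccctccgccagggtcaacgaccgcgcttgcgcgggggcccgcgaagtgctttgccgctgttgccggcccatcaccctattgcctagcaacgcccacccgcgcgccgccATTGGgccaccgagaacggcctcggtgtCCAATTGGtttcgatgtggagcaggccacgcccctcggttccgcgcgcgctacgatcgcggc
In the Srebf1 window CCAAT lies 30 to 26 bases before the start on the reverse strand, and GGGCGG 65 to 60 and 6 to 1 bases before it. In the Thrsp window CCAAT lies 79 to 75 bases before the start on the reverse strand and 52 to 48 bases before it on the gene's strand. In Fasn it lies at 90 to 86, 62 to 58 and 59 to 55 bases before the start, where the last pair, on opposite strands, shares bases. CCAAT stood in 6 of the 11 windows of the 8 genes, against 33.8% of all 32851 windows, and GGGCGG in 4 against 32.7%. Both strands were searched. CACGTG (6.02% of all windows), TCACNCCAC (1.05%) and direct repeats of AGGTCA spaced by 1 base (0.0335%) or 4 bases (0.0152%) were not found as spelled in the windows of the 8 genes. The exact repeats are so rare that 11 windows would hardly hold one. Variant forms were not searched, so the search cannot say whether such elements are absent.

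Scd1, the stearoyl-CoA desaturase that makes oleate and palmitoleate, had the largest difference of the 10. Its brighter probe set read 5040.1 and 3024 in controls against 34036 and 11421 in transgenic muscle. The lower transgenic array lay above the higher control, and the transgenic arrays differed more from each other than the controls did. The change was 2.32 ± 0.52 or 4.99-fold, with a 95% interval of 1.12 to 3.51 (limma adjusted p = 0.26). The second Scd1 probe set read 492 and 779 in controls against 3600.5 and 2392 in transgenic muscle. With every probe set tested, its change of 2.13 ± 0.39 was close to that of the first (limma adjusted p = 0.21).

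Scd2, the paralog that is prominent in brain and in early life, differed less. Its brightest probe set read 3107 and 2134 in controls against 3933 and 6002 in transgenic muscle, with no overlap. The change was 0.90 ± 0.35 or 1.86-fold (limma adjusted p = 0.75), and its 95% interval of 0.10 to 1.70 overlaps that of Scd1. The other Scd2 probe sets gave 0.77 ± 0.56 and 0.42 ± 0.51, and on both the groups overlapped. The difference between the Scd1 and Scd2 changes was not tested. Scd3, a further desaturase of mouse skin, read 417 and 518 in controls against 448 and 896 in transgenic muscle, so the groups overlapped.

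Fasn, which builds the chain itself, read 1415 and 2057 in controls against 4738 and 2683 in transgenic muscle. The groups did not overlap, but the gap between NTG replicate 2 and MCK-PPARa replicate 2 was small. The change was 1.04 ± 0.37 or 2.05-fold, with a 95% interval of 0.17 to 1.90 (limma adjusted p = 0.69). Within replicate 1 it was 1.70, and within replicate 2 it was 0.37.

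The acetyl-CoA carboxylases differed less. Acaca, the cytosolic lipogenic form, read 426 and 377 in controls against 585 and 849.5 in transgenic muscle, a change of 0.73 ± 0.43 (limma adjusted p = 0.96). Acacb, the form at the mitochondrial surface that is typical of muscle, read 5471 and 6758 in controls against 8245 and 8171 in transgenic muscle. Both transgenic arrays lay above both controls for each gene. The mean of the Acaca controls lay below the filter cut, a signal of 423, so Acaca passed only through its transgenic arrays. The Acacb change was 0.43 ± 0.29 (limma adjusted p = 0.96), and its 95% interval of -0.24 to 1.09 includes both no difference and one as large as that of Fasn.

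Acly, the source of cytosolic acetyl-CoA, had the smallest change. Its brightest probe set read 2118 and 1393 in controls against 3292 and 1134 in transgenic muscle. The transgenic arrays lay on either side of both controls. The change was 0.17 ± 0.50, with a 95% interval of -0.98 to 1.32 (limma adjusted p = 0.99). Of its 5 probe sets, 3 had changes above 0 and 2 below, from -0.34 to 0.43, and the groups overlapped on all 5. The identifiers of 3 of them end in _x_at, the mark of probes that may match other transcripts.

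Elovl6, which lengthens palmitate to stearate, read 465 and 624 in controls against 618 and 1218 in transgenic muscle. MCK-PPARa replicate 1 fell between the controls. The change was 0.63 ± 0.45 (limma adjusted p = 0.96), and the second probe set, below the filter with a mean signal of 178, gave 0.06 ± 0.64. Malic enzyme (Me1), a cytosolic source of NADPH, read 7798 and 12081 in controls against 10242 and 17484 in transgenic muscle. These groups overlapped, with a change of 0.46 ± 0.37 (limma adjusted p = 0.96). Without MCK-PPARa replicate 2, the highest array for both genes, the change was 0.18 for Elovl6 and 0.077 for Me1, and without NTG replicate 1 that of Me1 was 0.15. Its dimmer probe set read 3845 and 3835 in controls against 5601 and 6871 in transgenic muscle without overlap, and gave 0.68 ± 0.28 when every probe set was tested (limma adjusted p = 0.86).

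**Figure D2:**
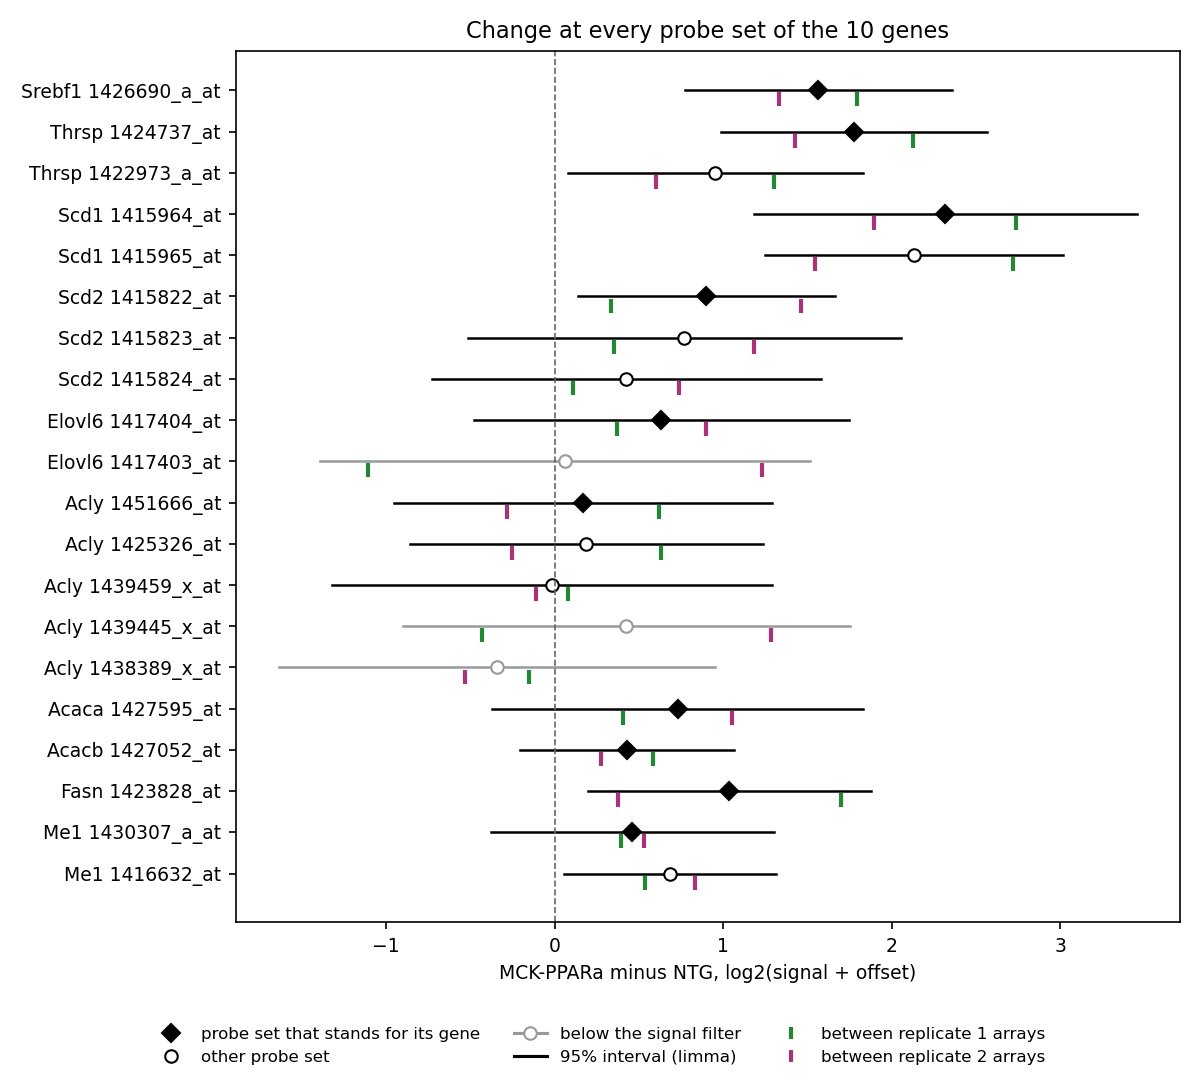
Change on the log2(signal + 64.2) scale at each of the 20 probe sets, with the 95% interval of the limma fit of every probe set; ticks give the change within each replicate number. Of the 20 probe sets 18 lie above 0, as do 55.5% of all genes tested, and 3 (grey) were below the signal filter.

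Over the 20 probe sets, 18 changes were above 0 and 10 sets had groups that do not overlap, all with MCK-PPARa above. Of all genes tested, 55.5% had a change above 0 and 20.3% had both MCK-PPARa arrays above. The shares over all probe sets were not computed. Several of the 20 sets read the same gene, so they are not independent. The 17 probe sets that passed the filter included the one that stands for each of the 10 genes. The genes differed in which arrays carried the difference. Srebf1, Thrsp, Scd1, Fasn, Acacb and Acly changed more between the replicate 1 arrays, and Scd2, Acaca, Elovl6 and Me1 more between the replicate 2 arrays. Scd1 changed by 2.74 and 1.90, Thrsp by 2.13 and 1.42 and Srebf1 by 1.79 and 1.33 between the replicate 1 and replicate 2 arrays. For Scd2 the values were 0.33 and 1.46. Acly was the gene with opposite signs, at 0.62 and -0.28.

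The arrays also differed by replicate number in control probe sets, though the labels do not say what the number marks. The control for the 5′ end of 18S ribosomal RNA was at 2202 (NTG) and 2313 (MCK-PPARa) on arrays of replicate 1 but at 28.9 and 44.7 on those of replicate 2. The control for its middle was at 1781 and 2212 against 64.0 and 102, and that for its 3′ end at 1414 and 1978 against 527 and 511. With the number as a block in limma, 3 of the 10 genes rose, where 1.37% of all genes rose. These were Scd1 (adjusted p = 0.0020), Srebf1 (adjusted p = 0.0058) and Thrsp (adjusted p = 0.0076). The same 3 rose in limma without NTG replicate 1, where 0.655% of all genes rose, and without MCK-PPARa replicate 2, where 0.679% did. Scd1 and Thrsp rose without NTG replicate 2 (0.524% of all genes), with adjusted p of 0.0071 and 0.038, and Srebf1 did not (0.21). Without MCK-PPARa replicate 1, none of the 10 passed (0.774% of all genes rose), and the limma adjusted p was 0.057 for Scd1, 0.092 for Thrsp and 0.24 for Srebf1. That array was the highest of the 4 for each of these 3 genes. The fits with an array left out had 1 residual degree of freedom and took 1 spread for all genes at a given level. They had 8400 degrees of freedom in total, against 7.86 in the fit of 4 arrays. Their p-values thus use no spread of the single gene. The fit with the block also had 1 residual degree of freedom, and 8.99 in total.

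Around the 10 genes, 67 other genes of fatty acid synthesis and its control were listed, of which 50 were tested, 8 were below the filter and 9 had no probe set of a single symbol. None of the 50 passed the limma test without the block. With it 2 rose, Mlycd and Cyb5r3, and 0 fell, where 1.37% of all genes rose. At an unadjusted p under 0.05, 6 were higher (Mlycd, Cyb5r3, Acss1, Cebpa, Nr1h3 and Mlxip) and 1 lower (Scap), with 3.33% and 2.51% of all genes for comparison. Of the 50, 38 had a change above 0, and their median was 0.15.

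**Figure D3:**
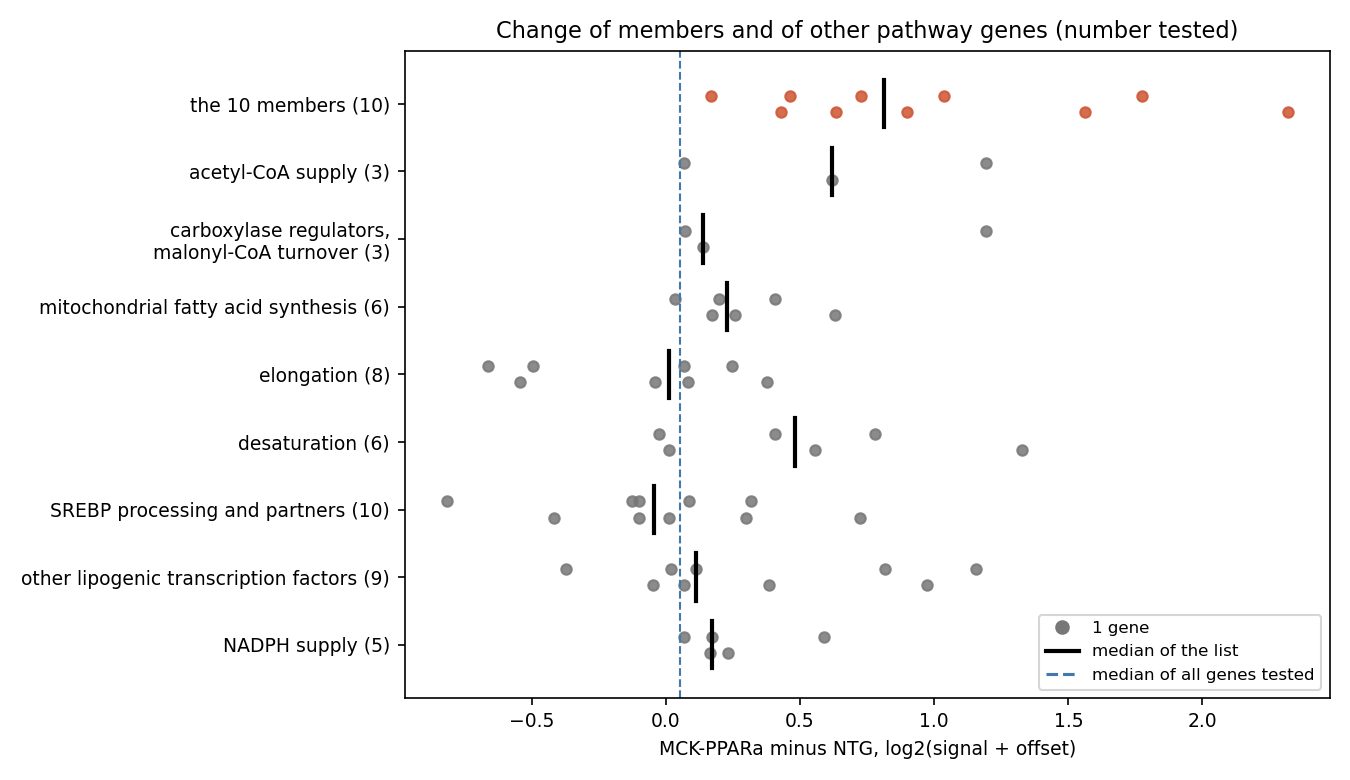
Change on the log2(signal + 64.2) scale of the 10 genes (top row) and of 50 other genes in 8 role lists, each point 1 gene, with the median of each list as a bar and the median of all genes tested as a dashed line. The 10 genes have a median of 0.81, and the lists range from -0.04 to 0.62.

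Acetyl-CoA and malonyl-CoA are also handled by enzymes outside the 10. Acss1 and Acss2, which make acetyl-CoA from acetate in mitochondria and cytosol, had changes of 1.19 ± 0.37 and 0.62 ± 0.33, and the ketone-body-using synthetase Aacs had 0.07 ± 0.50. Mlycd, the decarboxylase that removes malonyl-CoA, read 4439 and 4901 in controls against 10409 and 11118 in transgenic muscle, with a change of 1.19 ± 0.28 (limma adjusted p = 0.29, and 0.015 with the block). Within replicate 1 it was 1.22, and within replicate 2 it was 1.17. Mid1ip1, a relative of Thrsp that promotes carboxylase assembly, gave 0.07 ± 0.51, and Brca1, which binds phosphorylated Acaca, 0.14 ± 0.36.

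The mitochondrial synthesis pathway, which supplies lipoic acid, had 6 genes tested, all above 0. The smallest p belonged to the reductase Mecr (0.63 ± 0.34), the acyl carrier Ndufab1 (0.41 ± 0.31) and the malonyl transferase Mcat (0.26 ± 0.32). Elongation genes were split, 4 above and 4 below 0. The lowest changes among them were those of the dehydratases Hacd1 (-0.66 ± 0.31) and Hacd3 (-0.54 ± 0.33) and of the reductase Tecr (-0.49 ± 0.39). Of 6 other desaturation genes, 5 were above 0. Cyb5r3, which passes electrons to desaturases through cytochrome b5, read 1593 and 3027 in controls against 5413 and 5828 in transgenic muscle, with a change of 1.33 ± 0.36 (limma adjusted p = 0.40, and 0.025 with the block). Fads1, the desaturase of polyunsaturated fatty acids, gave 0.78 ± 0.39, and the ceramide desaturase Degs1 gave 0.56 ± 0.33.

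The genes that process and partner Srebf1's product were 5 above and 5 below 0, with a median of -0.04. Scap, the escort that carries the precursor to the Golgi for cleavage, read 1939 and 1707 in controls against 1236 and 815 in transgenic muscle. Both transgenic arrays were the lower ones, with a change of -0.82 ± 0.34 (limma adjusted p = 0.81). Nfya, a subunit of NF-Y, gave 0.72 ± 0.43, and Insig2, which retains Scap in the endoplasmic reticulum, gave -0.42 ± 0.41. Among other lipogenic factors, Nr1h3, the liver X receptor that activates Srebf1 transcription, read 677 and 791 in controls against 1185 and 2450 in transgenic muscle, a change of 1.15 ± 0.41 (limma adjusted p = 0.68). Cebpa, a factor of fat and liver, gave 0.97 ± 0.33 and the glucose-sensing Mlxip 0.82 ± 0.29. NADPH sources other than Me1 had 5 genes tested, all above 0 and with a smallest limma adjusted p of 0.956, led by the transhydrogenase Nnt (0.59 ± 0.33), Idh2 (0.23 ± 0.34) and Pgd (0.17 ± 0.30).

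The identity of the tissue and of other cells in it bears on these genes, since fat and liver express them strongly. In bulk RNA, more cells of a type and more RNA per cell cannot be told apart. Muscle fibre markers were high on all arrays, with Ckm from 168024 to 233214, Acta1 from 145610 to 229748 and Tnni2 from 172414 to 201793. Of 10 adipocyte markers listed, 8 had a probe set of their own and 6 were tested, 5 with a change above 0, and none passed in limma. With the replicate number as a block, Fabp4 (limma adjusted p = 0.0043) and Adipoq (limma adjusted p = 0.023) rose, as Scd1, Srebf1 and Thrsp did. Fabp4, the adipocyte fatty acid binding protein and also a known PPAR target, read 4186 and 3820.5 in controls against 21784 and 10839 in transgenic muscle. The adipokine gene Adipoq read 1072 and 1504 in controls against 3477 and 3180 in transgenic muscle, and Retn 1246 and 1361 against 2053 and 2662. All 3 were higher on both transgenic arrays, as Scd1, Srebf1 and Thrsp were, and as 20.3% of all genes tested were. Lipe (0.30 ± 0.37) and Slc7a10 (0.19 ± 0.44) overlapped between groups, and Car3, which muscle also expresses strongly, was lower (-0.69 ± 0.31). Leptin (Lep), at 76.9 to 124.5, and Cidec, at 111 to 397, were below the filter, and without detection calls they cannot be placed against background. The summed signal of the 6 was 63622 and 72020.0 in controls against 68753 and 53152 in transgenic muscle. Without Car3, the tested marker that was lower, it was 8572.5 and 8174 against 30024 and 18342. Fabp4 alone made up 4186 and 3820.5 of these control sums and 21784 and 10839 of the transgenic ones. The sum thus depends on which markers it holds. The part of fat cells in the differences of the lipogenic genes was not tested.

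Liver markers differed between arrays in another way. Alb read 19525 and 666 in controls against 9394 and 1148 in transgenic muscle. Apoa2 read 6669 and 145 in controls against 4054 and 909 in transgenic muscle, and Apoa1 5225 and 483 against 3509 and 564. The replicate 1 arrays were the high ones in each group, and NTG replicate 1 was the highest. The 4 liver markers tested summed to 35299 and 1327 in controls against 17806 and 3108 in transgenic muscle. Between the replicate 1 arrays the liver sum was lower in the transgenic sample, and between the replicate 2 arrays it was higher. Scd1, Srebf1, Thrsp and Fasn were higher in the transgenic sample for both numbers. At their brightest probe sets, Scd1, Srebf1 and Thrsp were, like the liver sum, higher on the replicate 1 array within each group. Fasn was so only in the transgenic group. On the second probe sets of Scd1 and Thrsp, replicate 1 was the lower control, at 492 against 779 for Scd1 and 643 against 1060 for Thrsp. The part of liver RNA in the differences of the lipogenic genes was not tested.

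**Figure D4:**
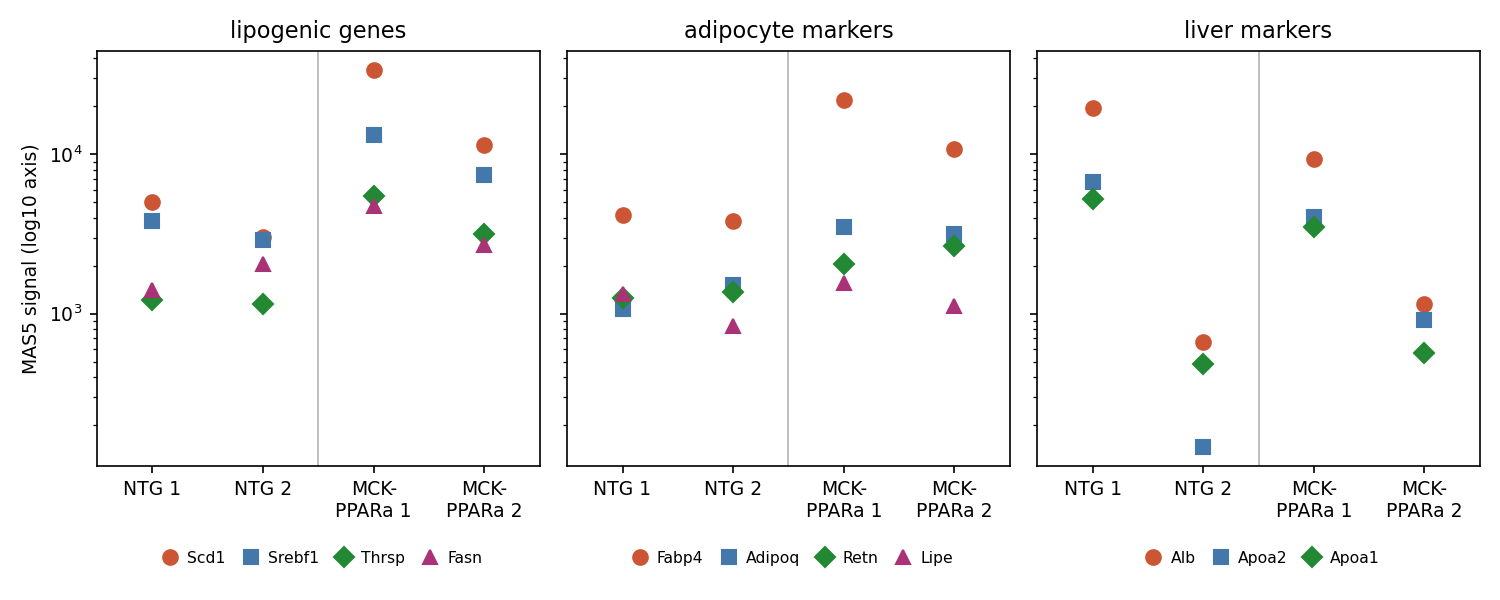
MAS5 signal (log10 axis) of 4 lipogenic genes, 4 adipocyte markers and 3 liver markers on each of the 4 arrays, with 1 point per gene and array. Fabp4, Adipoq and Retn are higher on both MCK-PPARa arrays, as are the lipogenic genes, while Alb, Apoa2 and Apoa1 are high on the replicate 1 array of both groups. Lipe overlaps between groups. The other adipocyte markers tested are not drawn: Car3, lower on both MCK-PPARa arrays, and Slc7a10, which overlapped.

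Markers of macrophages, endothelium and fibroblasts had no member that passed in limma. The brightest macrophage markers Csf1r, Adgre1 and Lyz2 had changes of 0.28 ± 0.29, 0.47 ± 0.35 and 0.55 ± 0.31, and all 3 were higher on both transgenic arrays, while Cd68 (0.06 ± 0.38) and Mrc1 (0.20 ± 0.47) overlapped. The endothelial Cdh5 (0.46 ± 0.31), Kdr (0.91 ± 0.32) and Pecam1 (0.35 ± 0.32) were also higher on both, while Tek (0.18 ± 0.32) and Emcn (-0.08 ± 0.37) overlapped. Over all genes tested, 20.3% were higher on both transgenic arrays and 13.8% lower on both. The fibroblast genes Col1a1 (0.27 ± 0.33), Col3a1 (-0.08 ± 0.30) and Dcn (0.11 ± 0.30) overlapped between groups, as did Lum (0.35 ± 0.32). Pdgfra, the fifth fibroblast marker, was lower on both transgenic arrays (-0.90 ± 0.37, unadjusted p = 0.043 and adjusted p = 0.81 in limma). Kdr (unadjusted p = 0.023 and adjusted p = 0.68 in limma) and the adipocyte markers Fabp4, Adipoq and Retn had smaller unadjusted p-values. Lum and Pdgfra, and Cd68, Mrc1, Tek and Emcn above, were added to the brightest 3 of each list after their values were seen.

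The genes with the profile most like that of Scd1 over the 4 arrays, by Euclidean distance of centred log2 values among 8399 other genes, were Ehhadh (0.384), the phosphatase inhibitor gene Ppp1r1a (0.540) and the epoxide hydrolase gene Ephx2 (0.597). Ehhadh, a peroxisomal fatty acid oxidation enzyme, read 566 and 355 in controls against 3243.5 and 1458.5 in transgenic muscle. For Srebf1 they were the fatty acid translocase gene Cd36 (0.163), the peroxisome assembly gene Pex16 (0.238) and Thrsp (0.306). Cd36 read 3847 and 2917 in controls against 14153 and 8597 in transgenic muscle, with the order of the arrays the same as for Srebf1. With 4 arrays a similar shape of profile is common: 195 genes had a Pearson correlation over 0.95 with Scd1 and 191 with Srebf1. Correlation ignores the size of a change, so these counts do not say how common such distances are.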

How the data were processed

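Expression was measured in gastrocnemius total RNA of 2 MCK-PPARa and 2 NTG samples, grouped by their titles, on 1 array each. The authors deposited intensity values, 1 signal per probe set, made with MAS5 per the submitters' processing notes. The labels give neither its settings nor detection calls, so signals cannot be placed above or below background. The deposited intensities are linear, and their trimmed means were equal on the 4 arrays within 10%, so they were not normalized again.

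Probe sets were named from GEO's platform annotation, with symbols checked by Entrez ID in RefSeq, where 20351 of the 20380 used matched and 0 differed. Only probe sets with a single gene symbol were used, leaving out 691 with several, 1555 that were unnamed here and 64 controls. Signals were transformed as log2(signal + 64.2), the offset being 10% of the median of all values. A probe set was kept from the 40th percentile of mean log2 value upward, and each gene was represented by its brightest one. The groups were compared in limma 3.58.1 under R 4.3.3 (lmFit, eBayes with a variance trend, 7.86 degrees of freedom, of which 2 from the arrays), two-sided, with Benjamini-Hochberg adjustment over 8400 genes. Other probe sets of the 10 genes were read from a fit of all 20380. The fit was also run on simulated arrays, with outcomes not given here. Their noise was independent between arrays, while the real arrays of the same replicate number deviated together (r = 0.46). The simulation therefore does not speak for that feature of the data.

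The 10 genes and the gene and marker lists were chosen with earlier results of these data known. Named were all 10 genes, up to 3 genes by smallest p of each pathway list, all adipocyte markers, the 3 brightest of each other marker list, and the 3 nearest profiles of Scd1 and Srebf1. Scd3 and 6 further markers were named after their values were seen. A planned comparison of protein sequences was not run. Alternatives covered the offset, filter, normalization, variance trend, choice of probe set, replicate block and each array left out. Their counts of genes at an unadjusted p, and a filter on mean signal, were added after the data were seen; mean log2 was kept because the planned filter was that of an earlier analysis of these arrays.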

Additional observations from a re-analysis of the deposited data

How the results depend on the processing

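Both groups have replicates 1 and 2, whose numbers the labels leave unexplained. Across genes, which are no independent replicates, arrays of the same number deviated together from their group means (r = 0.46). With the replicate block 196 genes passed limma's test, 115 higher and 81 lower, and 3 of the 10 lipogenic genes, while the median change of the 10 was the same. Over all genes, 5 passed in the fit of 4 arrays, 2 with the stricter filter (60th percentile), 3 with median centring, and 68 to 150 with an array left out. Of the 10 genes, 0 to 3 passed with an array left out and 0 under each of the 10 alternatives that kept 4 arrays unblocked. Their median change, 0.81 in the fit of 4 arrays, ran from 0.76 to 1.03 with an array left out and from 0.68 to 0.97 in those 10. Filtering and choosing probe sets by mean signal, added after the data were seen, tested 8402 genes and called 5. The stricter filter left 8 of the 10 genes. Median centring moved the median of all genes by -0.10, from 0.053 to -0.049, and the 10 genes by about as much. With all 4 arrays kept, between 4 and 6 of the 10 genes were higher at an unadjusted limma p under 0.05. The share of all genes higher at that p, 3.33%, was computed for the main settings alone. The counts under the alternatives therefore have no share of all genes to be set against. Of 148 single-gene values under the alternatives, 135 kept direction and side of the threshold, 11 newly passed (Scd1, Srebf1 and Thrsp, with the block or an array left out) and 2 turned, both Acly, at -0.12 without NTG replicate 2 and -0.57 without MCK-PPARa replicate 1 (range -0.57 to 0.91 with an array left out). With an array left out the change ran from 0.077 to 0.84 for Me1, 0.18 to 1.09 for Elovl6, 0.28 to 0.58 for Acacb, 0.48 to 0.98 for Acaca, 0.60 to 1.2 for Scd2 and 0.63 to 1.44 for Fasn. The fits with an array left out took 1 spread for all genes at a given level. They had 8400 degrees of freedom in total, against 7.86 in the fit of 4 arrays, so their counts are not comparable with its count. The part of this in their higher counts was not tested. Without detection calls, dim probe sets such as the second Elovl6 set cannot be placed against background.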
